A study of Mus musculus with 2 samples.

Results

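The 10 genes described here build and tie together the extracellular matrix of the heart: the crosslinking oxidases Lox, Loxl1 and Loxl2, the small leucine-rich proteoglycans Bgn (biglycan), Dcn (decorin), Lum (lumican) and Fmod (fibromodulin), the elastic fibre proteins Fbn1 (fibrillin-1) and Eln (elastin), and Mgp (matrix Gla protein). They were taken by gene symbol from the platform annotation, where each had 1 probe, and they are 10 of the 16390 genes named on the array. RNA of whole hearts from male C57BL/6J mice, 6 months old, was measured after 3 months of free feeding (ad libitum, AL) or of caloric restriction by 40% (CR). The mice were control mice or mice with a cardiomyocyte-specific knockout of Sirt1, an NAD-dependent deacetylase. The agent or promoter that removed the gene is not stated in the sources at hand, and other cell types are taken to keep it. There were 4 groups of 1 heart each: control AL, control CR, knockout AL and knockout CR. Each of 2 two-colour arrays paired the AL heart (Cy5) with the CR heart (Cy3) of 1 genotype, without a dye swap. With 1 heart per condition no difference could be tested or set against the spread between mice, diet could not be told apart from dye, and genotype could not be told apart from array. All values are limited in precision by having 2 arrays.

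In the matrix, lysyl oxidases deaminate lysines of collagen and elastin, which lets the fibres form covalent crosslinks and stiffens the tissue. The small leucine-rich proteoglycans sit on collagen fibrils and set their diameter and spacing, and they also bind growth factors. Fibrillin-1 forms microfibrils on which elastin is laid down, and matrix Gla protein, which depends on vitamin K, inhibits calcification. In the heart these genes are mainly expressed by fibroblasts, valve interstitial cells and vascular smooth muscle, so their signal in whole-heart RNA reflects both the number of such cells and the RNA in each, which cannot be told apart here.

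Caloric restriction was compared with free feeding to ask how the heart responds to it with and without Sirt1 in cardiomyocytes. Loxl1 and Fbn1 were lower in the CR heart of both genotypes, by more in the knockout pair, and Bgn was lower by about as much in both. Dcn was lower in the CR heart of the control pair, Mgp was higher in the knockout CR heart, and Lum differed between the genotypes and hardly between the diets. Eln varied little. Loxl2 and Lox also did so as processed here, but they were dim and their values depended on the processing. Fmod was not above background in any heart. A value is called past the fold used here where it is at least 1.5-fold (0.58 on the log2 scale). Values are log2 signals after normexp background correction, which adds an offset of 50 and so makes differences of dim genes smaller than they are.

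For 2 of the genes that were lower in the CR heart of both genotypes, Bgn and Fbn1, the RefSeq promoter table of GRCm38.p6 held a sequence, and it is shown because these members moved the same way. Fmod was the third member matched and the other members were not in that table. The 250 bases before the transcript start lie at chrX:73483351-73483600 on the plus strand for Bgn and at chr2:125506439-125506688 on the minus strand for Fbn1. They are written 5′ to 3′ on the strand of the gene. Capitals mark each match to the GC box GGGCGG on either strand.
Bgn: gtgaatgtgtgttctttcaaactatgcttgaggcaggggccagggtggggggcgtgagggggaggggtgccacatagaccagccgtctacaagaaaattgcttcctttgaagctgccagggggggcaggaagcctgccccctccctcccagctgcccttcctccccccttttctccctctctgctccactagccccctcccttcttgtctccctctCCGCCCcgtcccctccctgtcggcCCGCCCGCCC
Fbn1: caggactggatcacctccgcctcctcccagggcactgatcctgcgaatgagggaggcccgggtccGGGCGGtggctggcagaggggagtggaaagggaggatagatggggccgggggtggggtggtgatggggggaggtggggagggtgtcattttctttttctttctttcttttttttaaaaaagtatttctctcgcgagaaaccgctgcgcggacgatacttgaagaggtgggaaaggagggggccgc
The Bgn window held 3 GC boxes, a pair of which overlap, and the Fbn1 window held 1, while 32.7% of 32851 promoter windows of this length held at least 1. An E-box, CANNTG, was found once for Bgn and not for Fbn1 (66.2% of windows). The SMAD element CAGAC (42.2%), the AP-1 site TGANTCA (6.75%), the TATA box TATAAA (12.4%) and CCAAT (33.8%), read on both strands, had no match in either window. The Fmod window, which is not shown, held no GC box, 1 E-box and 2 SMAD elements. A match describes these letters and not a bound site.

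**Figure D1:**
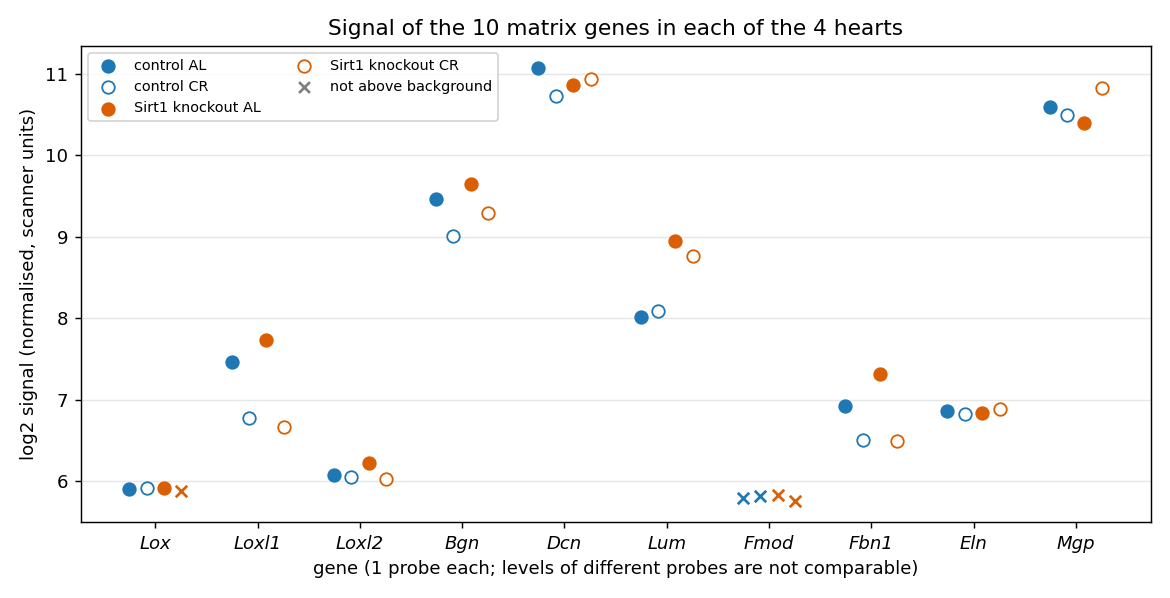
Normalised log2 signal (y axis) of the 10 genes (x axis) in the 4 hearts, 1 point per heart, with filled points for AL, open points for CR and crosses for signals not above background. Loxl1 and Fbn1 have their AL points above their CR points, Lum has its knockout points above its control points, and Eln has its 4 points within 0.07. Levels of different probes are not comparable.

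Loxl1, the oxidase that acts mainly on elastic fibres, differed most with the diet among the members as processed here. With the local background subtracted, Mgp did so on both arrays. The log2 signal of Loxl1 was 7.46 in the control AL heart, 6.77 in the control CR heart, 7.73 in the knockout AL heart and 6.67 in the knockout CR heart. Both AL hearts were thus above both CR hearts. Above the blank spots, its control signal was 112 (AL) and 63.7 (CR) scanner units and its knockout signal 147 and 45.8 units. CR over AL was -0.69 (1.61-fold lower) in control and -1.05 (2.08-fold lower) in knockout hearts. As processed here these were ranks 20 of 12659 and 12 of 12144 genes counted from the lowest. The direction held under every setting tried, with -0.32 and -0.62 when the local background was subtracted and -1.18 and -1.83 in the authors' deposited table. The control value was therefore short of 1.5-fold with the local background subtracted.

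Loxl2, an oxidase that crosslinks collagen IV among other substrates, was dim. It had log2 signals of 6.07 and 6.05 in the control AL and CR hearts and of 6.22 and 6.02 in the knockout AL and CR hearts. The knockout AL heart was the highest and the other hearts lay within 0.05 of each other. Its signal above the blanks was 17.4 units in the knockout AL heart and 9.39 in the knockout CR heart, so that the knockout CR over AL value of -0.20 became -0.71 with an offset of 0 and -1.03 in the authors' deposited table. Lox, the founding member of the family, lay between 5.88 and 5.92 in the 4 hearts, from 3.26 to 5.81 units above the blanks. It was not above background in the knockout CR heart, where the lowest detected signal was 5.91, and the bound against the knockout AL heart was 1.01-fold. On the control array its CR over AL value was 0.01 as processed here and 0.47 in the authors' deposited table. No order of the hearts can be read for Lox at this signal.

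Among the proteoglycans, Bgn, which binds collagen and transforming growth factor beta, had log2 signals of 9.46 (control AL), 9.01 (control CR), 9.65 (knockout AL) and 9.29 (knockout CR). As for Loxl1, both AL hearts were above both CR hearts. CR over AL was -0.45 and -0.37 on the control and knockout arrays, and from -0.58 to -0.35 and from -0.44 to -0.27 over the settings tried. The difference between these responses was 0.09, close to 0.0883, the SD of CR over AL between spots of 1 positive control on the knockout array. That SD measures the spot noise of ratios within an array and says nothing of how mice differ.

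Dcn, which regulates the diameter of collagen fibrils, had log2 signals of 11.08 and 10.73 in the control AL and CR hearts. In the knockout pair it had 10.87 (AL) and 10.94 (CR). As processed here the control AL heart was the highest and the control CR heart the lowest, with both knockout hearts between them. The ratio of the Dcn spot to its surroundings was 8.18 (AL) and 3.78 (CR) for the control pair and 1.60 and 1.75 for the knockout pair. With the local background subtracted each knockout heart lay below the control heart of its diet (-1.08 for AL and -0.41 for CR). CR over AL was -0.35 in control and 0.07 in knockout hearts. The knockout response minus the control response was 0.42, above 99% of 11701 genes as processed here, and from 0.42 to 0.67 over the settings tried. In the authors' deposited table it was 0.60, where 5.97% of genes were at least 1.5-fold higher.

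Lum, a keratan sulphate proteoglycan that organises collagen fibrils, ran by genotype. Its log2 signal was 8.02 and 8.09 in the control AL and CR hearts and 8.95 and 8.77 in the knockout AL and CR hearts. The knockout hearts lay above the control hearts under both diets. CR over AL was 0.07 and -0.18. Fmod, which shares collagen binding sites with Lum, had 5.79 and 5.82 in the control hearts and 5.83 and 5.76 in the knockout hearts (AL, then CR) and was not above background in any of them, so no fold is given for it. Its neighbours on chromosome 1, Prelp and Optc, were detected in all 4 hearts, Prelp at 6.68 and 6.36 (control AL and CR) and 6.85 and 6.49 (knockout).

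Dcn and Lum lie next to each other on chromosome 10, followed by Kera and Epyc. Despite this position their patterns over the hearts differed: the range of Dcn was 0.35 with the control AL heart highest, and the range of Lum was 0.93 with the control AL heart lowest. Kera, lumican's close relative of the cornea, was near background at 5.93 to 5.98, and Epyc, a cartilage proteoglycan, was above background in both CR channels (5.92 and 5.98) and in neither AL channel.

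Of the elastic fibre genes, Fbn1 had log2 signals of 6.92 and 6.50 in the control AL and CR hearts. In the knockout AL and CR hearts it had 7.31 and 6.49. The CR hearts were alike and the knockout AL heart was the highest. Above the blanks, its control signal was 60.8 and 41.4 units (AL, then CR) and its knockout signal 97.7 and 34.1 units. CR over AL was -0.42 in control and -0.82 (1.77-fold lower) in knockout hearts. Subtraction of the local background gave -0.30 and -0.56, which leaves the knockout value short of 1.5-fold. The values were -0.91 and -1.66 in the authors' deposited table.

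Eln, the elastic core protein that is deposited on fibrillin microfibrils, did not follow Fbn1. Its log2 signal was 6.86 (AL) and 6.82 (CR) in the control pair and 6.84 (AL) and 6.88 (CR) in the knockout pair. These lie within 0.07 of each other. CR over AL was -0.04 and 0.04, both smaller than the spot noise of 0.0883, which is an SD of such ratios and not of single signals. It was detected in each heart, at 55.3 to 66.2 units above the blanks.

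Mgp, the calcification inhibitor, had log2 signals of 10.59 and 10.50 in the control AL and CR hearts and of 10.40 and 10.83 in the knockout AL and CR hearts. The knockout CR heart was the highest and the knockout AL heart the lowest. CR over AL was -0.10 in control and 0.43 (1.35-fold higher) in knockout hearts, above 97.9% of genes. Its response differed by 0.53 between the genotypes, above 99.5% of 11701 genes as processed here, and from 0.21 to 0.70 over the settings tried. The 0.70 was in the authors' deposited table, where 5.97% of genes were at least 1.5-fold higher. The brightness around the Mgp spot was nearly that of the spot: the ratio of spot to surroundings was 1.02 (AL) and 1.05 (CR) for the control pair and 1.17 and 1.31 for the knockout pair. For the median probe it was 1.43 and 1.13 (control) and 1.46 and 1.13 (knockout). With these surroundings subtracted the control CR over AL value turned to 0.72 and the knockout value became 0.93.

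**Figure D2:**
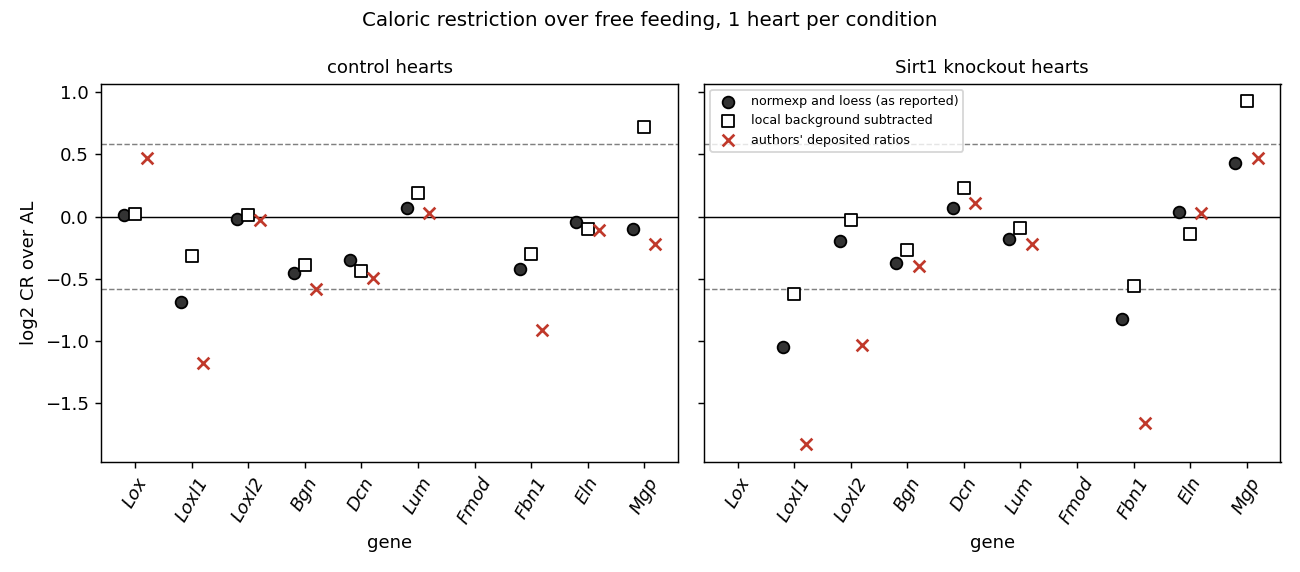
Log2 CR over AL (y axis) of the detected genes (x axis) in control hearts (left) and Sirt1 knockout hearts (right), 1 heart per condition, with 3 ways of processing shown as circles, squares and crosses. Dashed lines mark 1.5-fold; Loxl1 is below 0 in all 3 on both arrays, and Mgp lies at 0.72 only with the local background subtracted in control hearts.

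Counted together, 9 of the 10 members were detected in both channels of the control array and 8 in both of the knockout array. On the control array 1 of the 9 (Loxl1) was at least 1.5-fold lower with CR, where 0.34% of 12659 genes were, and 0 were at least 1.5-fold higher, where 0.822% of genes were. With median centring these background shares were 0.197% and 1.66%. The authors' deposited table had 2 of 9 members lower and 0 higher (4.54% and 8.79% of genes), as did an offset of 0 (2.45% and 3.61%). With the local background subtracted 0 members were lower and 1 higher (1.28% and 1.01%), and 5 of 9 were below 0. In the brighter part of the genes, those not under the median signal, 0.684% were that much lower. Values below 0 were seen in 7 of 9 members, against 48.6% of genes, and the members' median was -0.10 against 0.00 for all genes. On the knockout array 2 of the 8 (Loxl1 and Fbn1) were at least 1.5-fold lower, against 0.758% of 12144 genes or 1.4% of the brighter ones, and 0 were that much higher (0.774%). An offset of 0 and the authors' deposited table gave 3 of 8 lower and 0 higher (3.49% and 6% of genes lower), and local background subtraction 1 lower and 1 higher (1.43% and 2.06%). Values below 0 were seen in 5 of 8, against 49.9%, and the median was -0.19 against 0.00. Without the detection filter the medians of all 10 members were -0.07 and -0.13.

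When the control response was subtracted from the knockout response, which cancels any dye bias the arrays share, 0 of 8 members passed 1.5-fold in either direction, as did 0.521% (lower) and 0.393% (higher) of 11701 genes. With median centring these shares were 0.803% and 0.291%. An offset of 0 gave 2 of 8 members lower and 0 higher (3.71% and 3.32% of genes), and in the authors' deposited table there were 3 lower and 2 higher (7.32% and 5.97%). With the local background subtracted 0 members were lower and 1 higher (2.2% and 3.27%). The members were split evenly, with 4 below and 4 above 0 (51% of genes were below). Fbn1 (-0.40), Loxl1 (-0.37), Lum (-0.24) and Loxl2 (-0.18) were lower in the knockout response, and Mgp (0.53), Dcn (0.42), Bgn (0.09) and Eln (0.08) higher. The value for Eln was -0.04 with the local background subtracted, while the others kept their sign under every setting tried. These differences use the same 4 hearts as the responses on each array and are not separate evidence.

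Between the genotypes, which asks how hearts without Sirt1 in their muscle cells differ at a given diet, Lum was the member furthest apart as processed here, while Mgp was further apart under CR with the local background subtracted. Lum was higher in the knockout hearts by 0.93 (1.90-fold) under AL and by 0.68 (1.61-fold) under CR, above 99.4% and 99.1% of genes. Local background subtraction gave 1.77 and 1.49, and median scaling of each channel 0.85 and 0.62. On the control array the Lum spot was barely brighter than its surroundings, with ratios of 1.03 (AL) and 1.05 (CR), against 1.58 and 1.54 on the knockout array. Of the detected members, 1 of 9 under AL and 1 of 8 under CR was thus at least 1.5-fold higher, against 2.6% and 1.45% of genes, and 0 were that much lower, against 1.78% and 1.07%. With median scaling the background shares were 1.76% higher and 3.2% lower under AL and 0.861% and 2.35% under CR. Subtraction of the local background raised the shares to 9.73% higher and 9.49% lower under AL, with 2 of 9 members higher and 1 lower. Under CR it gave 11.2% and 10.3%, with 2 of 8 members higher and 0 lower. An offset of 0 gave 2 of 9 members higher under AL (6.79% of genes) and 1 of 8 under CR (5.91%).

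The other members lay closer together between the genotypes. Under AL, Fbn1 was higher in the knockout heart by 0.39 and Loxl1 by 0.26, and both kept that sign under every setting tried. Under CR they were at -0.01 and -0.10, so that the genotypes were nearer for these genes in the restricted hearts. Bgn was at 0.19 (AL) and 0.28 (CR), but at -0.15 and -0.03 with the local background subtracted. Dcn was at -0.20 and 0.22, at -0.44 and -0.01 with median scaling, and at -1.08 and -0.41 after subtraction of the local background. Mgp was at -0.20 and 0.33, and that subtraction turned its AL value to 1.64 and took its CR value to 1.85. Loxl2 was at 0.15 and -0.03, with 0.21 and 0.17 after the subtraction and 0.53 and -0.11 with an offset of 0. Eln was at -0.01 and 0.07, with -0.31 and -0.35 after the subtraction. Lox, measured under AL alone, was at 0.02.

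**Figure D3:**
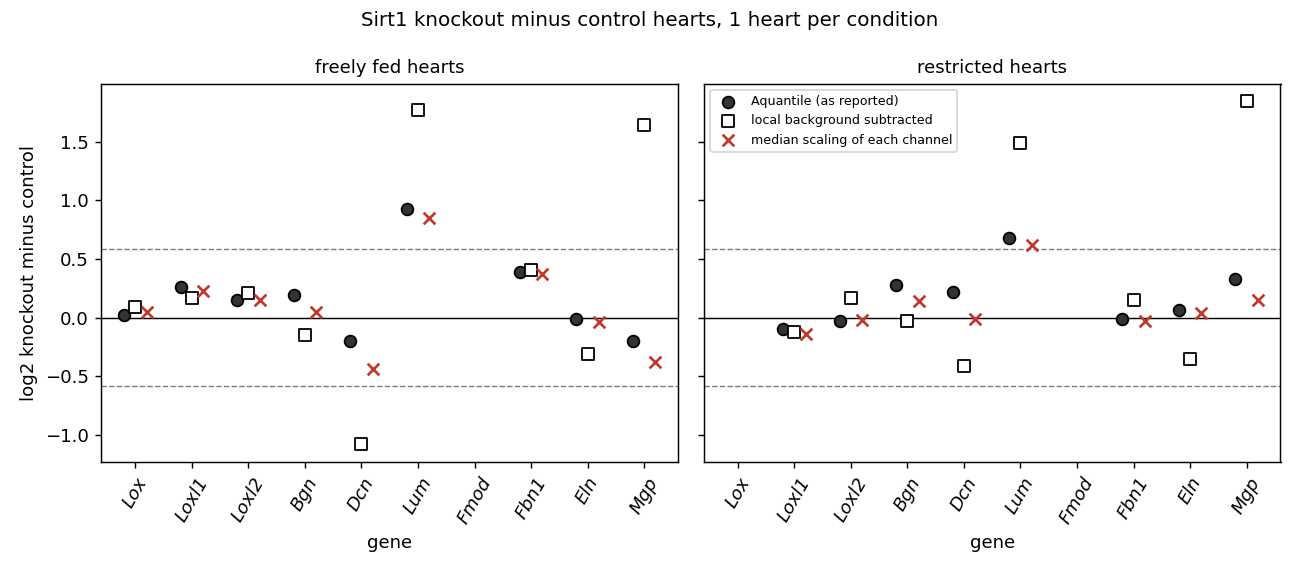
Log2 difference of the Sirt1 knockout heart from the control heart (y axis) for the detected genes (x axis) under free feeding (left) and restriction (right), 1 heart per condition, with 3 ways of processing as circles, squares and crosses and dashed lines at 1.5-fold. Lum is above the upper line in all 3 under both diets; the squares of Dcn and Mgp lie far from their circles under free feeding.

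The profiles most like those of the members were found by the distance between the 4 log2 signals after subtracting each gene's mean, among 5753 genes of at least median signal. With 4 hearts this is a description only. Fbn1 was nearest to Mfap5, another protein of the microfibrils (distance 0.11), with 8.03 (AL) and 7.59 (CR) in the control pair and 8.43 and 7.72 in the knockout pair, and then to Timm8a1 and Emp3 (0.15 each). Bgn was nearest to Flna, an actin-binding protein (0.06), Syngr2 (0.07) and the matrix glycoprotein Fn1 (0.07). Loxl1 was nearest to Cd74, the invariant chain of MHC class II (0.16), the calcium-binding S100a6 (0.19) and Fcer1g, an Fc receptor chain of leukocytes (0.22). Lum was nearest to Mccc2, a mitochondrial carboxylase subunit (0.09), the Z-disc protein Ldb3 (0.10) and Anxa1 (0.12). Members not detected in every heart, or with a range under 1.5-fold over the hearts, were not searched.

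Other genes of the same tasks were counted from lists. Of 18 other crosslinking and collagen-modifying enzymes detected on the control array, 9 were below 0 with CR, and on the knockout array 9 of 16 were, with 0 past 1.5-fold lower on either. The remaining lysyl oxidase relatives were dim: Loxl3 had 6.20 and 6.01 (control AL and CR) and 6.16 and 5.98 (knockout), and Loxl4 lay between 5.98 and 6.09. Between the genotypes Tgm2, a transglutaminase that crosslinks matrix proteins by another reaction, was higher in the knockout hearts by 0.83 (AL) and 1.08 (CR). Pcolce, an enhancer of procollagen processing, was higher there by 0.79 under AL.

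Of the other elastic fibre genes, 13 of 22 were below 0 with CR on the control array (median -0.03) and 14 of 19 on the knockout array (median -0.07). Fbln1, a fibulin of elastic fibres and basement membranes, was at -0.60 on the control array (-0.18 with the local background subtracted), and Mfap5 at -0.71 on the knockout array (-0.48). Fbln5, which organises elastin on microfibrils, had 7.95 and 7.61 in the control AL and CR hearts and 8.27 and 8.06 in the knockout hearts. The AL heart was again the higher one of each pair.

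Of the other small leucine-rich proteoglycans, 4 of 10 were below 0 on the control array and 5 of 10 on the knockout array, with 0 past 1.5-fold on either. Ecm2 was higher in the knockout heart by 0.60 under AL, the direction of Lum, with 7.32 and 7.20 in the control AL and CR hearts and 7.92 and 7.65 in the knockout hearts. Ogn (osteoglycin) ran the other way, at 8.85 in both control hearts and 8.53 and 8.73 in the knockout AL and CR hearts. Of the other proteoglycans, 8 of 15 were below 0 on the control array (median -0.03) and 6 of 16 on the knockout array (median 0.01). Enzymes that build glycosaminoglycan chains were below 0 in 9 of 15 (median -0.02) and 7 of 14 (median -0.03).

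Genes of vitamin K dependence and calcification were below 0 in 5 of 10 (median -0.01) and 4 of 10 (median 0.03). Ggcx, the carboxylase that activates matrix Gla protein, had 7.28 and 7.07 in the control AL and CR hearts and 7.25 and 7.10 in the knockout hearts, so it did not share the high knockout CR value of Mgp. Gas6 and Ahsg of this list did share it, while Nqo1 and Spp1 did not. Gas6 had 7.63 and 7.78 in the control AL and CR hearts and 7.83 and 8.28 in the knockout hearts, and Ahsg 6.95, 6.73, 6.79 and 7.30 in that order. In the same order Nqo1 had 8.18, 8.78, 8.34 and 8.23, and Spp1 8.60, 8.20, 8.12 and 7.95. In the difference of the responses 1 of the 10 genes was at least 1.5-fold lower and 1 higher, against 0.521% and 0.393% of genes. For knockout minus control under CR, 8 of the 10 genes were above 0 and 2 below (median 0.08 against 0.00 for all genes). Matrix proteases were below 0 in 5 of 9 (median -0.04) and 7 of 8 (median -0.11), with Mmp2, a gelatinase, at -0.71 on the knockout array (-0.47 with the local background subtracted). Under AL the proteases were above 0 in the knockout heart in 10 of 11. Their median was 0.28 against 0.01 for all genes, or 0.06 once the local background was taken off. Of these proteases 2 were at least 1.5-fold higher, against 2.6% of genes. They were the elastin-cutting cathepsin Ctss at 0.81 and Adamts1 at 0.62 (-0.37 in that setting).

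The collagens that these members bind had values below 0 for 8 of 10 genes in the control pair (median -0.21, or -0.09 once the local background was taken off). In the knockout pair 10 of 10 were below 0 (median -0.68, or -0.30 in that setting). There 6 were at least 1.5-fold lower, against 0.758% of genes. Col3a1, a fibrillar collagen of compliant tissues, had 9.32 and 8.46 in the control AL and CR hearts and 9.67 and 7.37 in the knockout hearts. Loxl1 had this order of hearts too. Fbn1 and Loxl2 also had it, but their CR hearts lay only 0.01 and 0.03 apart. Dcn, Mgp and Eln did not have it.

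**Figure D4:**
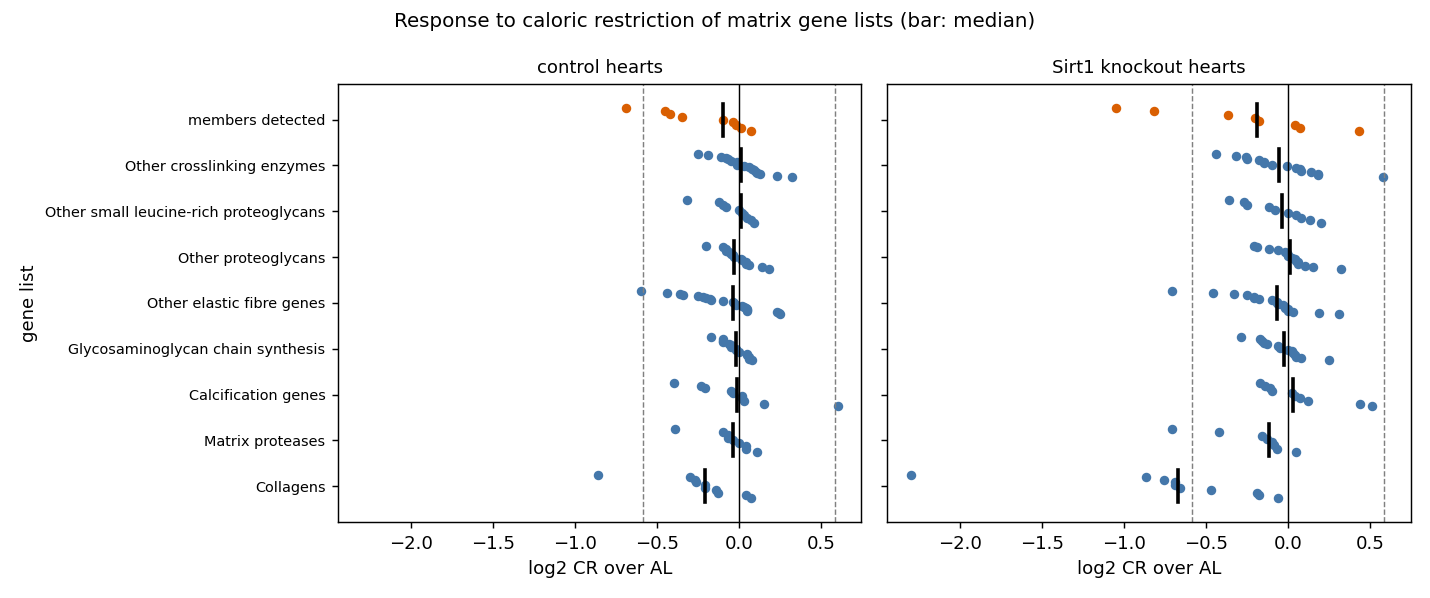
Log2 CR over AL (x axis) of each detected gene, by gene list (y axis), in control hearts (left) and Sirt1 knockout hearts (right), with the members in orange, other lists in blue, a bar at each median and dashed lines at 1.5-fold. The collagens have medians of -0.21 and -0.68; the medians of the other blue lists lie between -0.11 and 0.03.

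Markers of cell types moved with some of these values. Fibroblast markers had CR over AL values below 0 for 9 of 12 in the control pair (median -0.22) and 10 of 12 in the knockout pair (median -0.32). With the local background subtracted these medians were -0.11 and -0.20. The list includes Col1a1 and Col1a2, which were also counted with the collagens. Both were among the 3 fibroblast markers at least 1.5-fold lower on the knockout array, against 0.758% of genes. All fibroblast markers were detected. Their summed signal above the blanks was 9090 (AL) and 8070 (CR) units in control and 7290 and 7960 in knockout hearts. Sums at different wavelengths are not comparable. Between the genotypes 8 of 12 fibroblast markers were above 0 in the knockout heart with either diet (medians 0.11 for AL and 0.10 for CR). For all genes compared, here and for the cell lists below, the genotype medians were 0.01 (AL) and 0.00 (CR). The fibroblast medians were 0.01 and -0.06 once the local background was taken off. Tcf21, a fibroblast transcription factor, was at 0.66 and 0.46, but at -0.09 and 0.02 after subtraction of the local background, while Dpt (dermatopontin) was lower at 9.95 in the control AL and 9.59 in the knockout AL heart. Smooth muscle and pericyte markers were above 0 in 7 of 10 (median 0.07) and 5 of 9 (median 0.03), with summed signals of 1430 and 2070 units in control and 2110 and 2340 in knockout hearts. Macrophage markers were below 0 in 7 of 9 (median -0.19) and 7 of 8 (median -0.36), or at medians of -0.12 and -0.18 with the local background subtracted. They summed to 1270 and 1050 units in control and 1910 and 1080 in knockout hearts. Between the genotypes the macrophage markers were above 0 in the knockout heart for 8 of 9 with AL feeding (median 0.29) and for 7 of 8 with CR (median 0.17). Without the local background their medians were 0.20 and 0.22. Smooth muscle and pericyte markers were above 0 in 8 of 10 (median 0.10) and 7 of 9 (median 0.10). Subtraction of the local background gave medians of 0.02 and -0.01 for them. Among these markers Rgs5 was at 1.23 and 0.95 and Smtn at 1.22 and 0.90, but at -0.97 and -0.99 and at 0.01 and -1.05 after that subtraction. The part of these cells in the values of Loxl1, Fbn1, Bgn and Lum was not tested.

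The other cell lists had medians on the control and knockout arrays of 0.21 and 0.12 for cardiomyocytes, 0.05 and -0.19 for endothelium, 0.06 and 0.16 for atrial muscle and -0.03 and 0.01 for valve and cartilage. They were -0.13 and 0.00 for epicardium and mesothelium and 0.00 and 0.05 for adipocytes. With the local background subtracted they became -0.11 and 0.00 for endothelium and 0.16 and -0.12 for atrial muscle. On the control array 2 of 7 valve and cartilage genes and 1 of 5 epicardial genes were at least 1.5-fold lower, against 0.34% of genes. These were Cytl1 (8.18 in the AL and 7.12 in the CR heart), Matn4 (13.01 and 12.33) and Upk3b (6.97 and 6.34). Lung markers gave 1 detected gene on the control array at -0.09 and none on the knockout array. Of 11 cardiomyocyte markers on the array 10 or 11 were detected in each heart. Between the genotypes the atrial light chains stood far apart, with Myl7 at 10.26 and 10.32 in the control AL and CR hearts and 6.31 and 6.26 in the knockout hearts, and Myl4 at 9.49, 9.53, 7.01 and 6.81 in the same order. Nppa went the other way, with 10.24 and 10.27 in the control and 11.24 and 12.22 in the knockout hearts, and the atrial list had medians of 0.00 (AL) and 0.12 (CR). Cardiomyocyte markers were above 0 in the knockout heart in 7 of 10 under AL (median 0.38) and in 8 of 11 under CR (median 0.19). All genes had medians of 0.01 and 0.00. Under AL 4 of the 10 were at least 1.5-fold higher, against 2.6% of genes. With the local background subtracted the cardiomyocyte medians were 0.63 and 0.60. The part of these muscle genes in the genotype value of Lum was not tested. Sirt1 itself had 7.11 and 7.53 in the control and 7.07 and 7.51 in the knockout hearts (AL, then CR); its probe was not placed relative to the deleted part, so this does not check the genotype.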

How the data were processed

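The deposited scanner files hold, per the file headers, the intensity of each spot and of its surroundings at 635 nm (AL, Cy5) and 532 nm (CR, Cy3). The authors' deposited table holds, per the labels, normalized log2 ratios (CR over AL). No build or scanner software is named in the labels or headers. Spot intensities, without the local background, went through normexp (offset 50) and then loess within arrays (limma 3.58.1, R 4.3.3; control and flagged spots at weight 0). Separate channels were taken after Aquantile. A spot was detected where it exceeded the mean of 2736 blank spots, with 5% trimmed at each end, by 2 SD; 74.0% to 80.7% of 23473 probes were. Each gene was represented by its brightest probe. The normalization within arrays was tested on simulated data. These had an even background and the same differences on both arrays, so local background and the step between arrays were not tested.

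The members and lists were chosen with earlier results of these data known. Besides the members, names were drawn from list genes past 1.5-fold, at most 3 each way per list and comparison, and from the 3 profiles most like a member. Not every list gene past 1.5-fold is named. Ggcx, Gas6, Ahsg, Spp1, Ogn, Fbln5, Prelp, Optc, Kera, Epyc, Loxl3 and Loxl4 were added after their values were seen. Alternatives were an offset of 0, local background subtraction, median centring, loess within blocks, the deposited ratios, median scaling, quantile normalization, all probes and no detection filter.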

Additional observations from a re-analysis of the deposited data

Results flagged for a closer look

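For 4 members the CR over AL value had opposite signs in control and knockout hearts, each from 1 heart per condition, and the differences were not tested. Dcn was at -0.35 in control and 0.07 in knockout hearts. Mgp was at -0.10 and 0.43, although the control value is above 0 with the local background subtracted. Lum was at 0.07 and -0.18. Eln was at -0.04 and 0.04, both smaller than the spot noise of 0.0883.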

How the results depend on the processing

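No paired analysis was possible because each condition was measured in 1 heart; for the same reason no heart could be left out. The median of the members for CR over AL went from -0.10 to -0.22 on the control array in the authors' deposited ratios, and on the knockout array from -0.19 to -0.31 in them and to -0.32 with an offset of 0. For knockout minus control it went from 0.15 to 0.05 (AL) and from 0.14 to 0.01 (CR) with median scaling of each channel, and to 0.03 (CR) without the detection filter. The other alternatives moved these medians, and every alternative that of the difference of the responses, by less than the spot noise of 0.0883. Of single member values, 30 of 42 moved by more than that with the local background subtracted and 15 of 42 with an offset of 0. The count was 15 of 25 in the deposited ratios, 6 of 17 with median scaling and 2 of 25 with median centring. With loess within blocks or quantile normalization it was 0. All probes and no detection filter also gave 0, but neither could move a single value. Each member had 1 probe, and the filter drops values without altering them. No value past 1.5-fold changed sign. Signals near the blanks limit Lox, Loxl2 and Fmod.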
